A study of Homo sapiens with 4 samples.

Results

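The kinesins are a family of motor proteins, and their genes were taken as the protein-coding genes whose symbol is KIF followed by a number, which gave 39 of the 20372 genes counted. They were sorted by textbook role into 13 mitotic kinesins, 15 transport kinesins, and 11 others, and 32 of the 39 had enough counts to be tested. RNA was sequenced from TPC1 cells, an established papillary thyroid carcinoma line that carries the CCDC6-RET fusion, after treatment with BLU6864, an inhibitor of the RET kinase, for 6 h (2 libraries) or 24 h (2 libraries). Every library came from this one line and received the inhibitor, and 0 vehicle libraries were analysed here, so the effect of the inhibitor and that of time in culture cannot be told apart. The dose is 100 µM in the labels but 100 nM in the methods. The word re-analysis stands in the labels of both 24 h libraries and of neither 6 h library. Any difference in origin or handling that goes with this label cannot be told apart from time. Nothing says that the libraries of one time point came from separate cultures, so P values measure only the spread between these libraries, which may be technical.

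A kinesin uses ATP to move along a microtubule or to take its end apart. In dividing cells one set of kinesins builds the spindle, moves chromosomes, and completes cytokinesis, and these genes are known to be transcribed mostly in G2 and mitosis. Another set carries vesicles, organelles, and ciliary components in all phases of the cell cycle, and a few members act mainly in cilia or in nerve cells.

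Total counts were between 23917056 and 27457040 per library. The thyroid factor PAX8 had between 19124 and 22978 counts and thyroglobulin (TG) between 98 and 245, while TSHR and NKX2-1 had 0 counts in every library, so these defining markers of thyroid follicular cells were absent. TG was called lower at 24 h (log2 fold change −1.09) and FOXE1 higher (0.84). Of the epithelial markers, KRT8 had 1720 to 1811 counts and KRT18 had 856 to 1185, whereas CDH1 had at most 8 and EPCAM at most 11. KRT19 was called lower at 24 h (log2 fold change −1.59) and KRT7 higher (0.84). Of 11 markers of other cells, 9 were in the table. PTPRC, LYZ, and DCN had at most 5 counts and CHAT 0. SYP had 28 and 23 counts at 6 h and 35 and 26 at 24 h and was not called. GFAP had 13 and 26 counts at 6 h and 18 and 28 at 24 h and was not called. COL1A1, with 218 and 237 counts at 6 h against 63 and 95 at 24 h, and VWF were called lower, and CD14 was called higher. The summed level of the 9 markers was 12.6 to 13.3 CPM (the count scaled by the size of the library) at 6 h and 8.04 to 9.15 CPM at 24 h. The part of these markers in the results was not tested.

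Promoter sequences are shown first because mitotic and transport kinesins differed in the letters they hold. The cell cycle homology region (CHR) and the CCAAT box are known as paired elements of promoters that are active in G2 and mitosis, the first bound by the MuvB complex and the second by NF-Y. Below are the 150 bases that precede the start site of KIF5B, the main transport kinesin, and of the 4 mitotic kinesins with the largest fall among those with CHR letters entirely before the start. They are RefSeq sequences of GRCh38.p14, printed 5′ to 3′ on the strand of the gene, and the capitals mark CHR letters (TTTGAA, or TTCAAA on the other strand) and the CCAAT box (CCAAT, or ATTGG on the other strand).
KIF15, chr3:44761644-44761793, plus strand: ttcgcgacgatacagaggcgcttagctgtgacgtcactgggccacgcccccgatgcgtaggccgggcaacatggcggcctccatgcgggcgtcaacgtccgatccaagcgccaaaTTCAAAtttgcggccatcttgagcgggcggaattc
KIF4A, chrX:70289954-70290103, plus strand: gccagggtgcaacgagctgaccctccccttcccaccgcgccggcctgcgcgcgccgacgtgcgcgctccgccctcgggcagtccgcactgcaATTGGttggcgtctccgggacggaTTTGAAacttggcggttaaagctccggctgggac
KIF23, chr15:69414199-69414348, plus strand: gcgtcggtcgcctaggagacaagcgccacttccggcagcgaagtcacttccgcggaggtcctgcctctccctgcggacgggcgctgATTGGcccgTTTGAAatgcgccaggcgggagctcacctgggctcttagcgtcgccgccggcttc
KIF11, chr10:92592980-92593129, plus strand: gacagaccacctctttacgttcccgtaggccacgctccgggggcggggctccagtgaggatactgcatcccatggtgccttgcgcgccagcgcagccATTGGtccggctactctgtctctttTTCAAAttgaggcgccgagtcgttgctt
KIF5B, chr10:32056426-32056575, minus strand: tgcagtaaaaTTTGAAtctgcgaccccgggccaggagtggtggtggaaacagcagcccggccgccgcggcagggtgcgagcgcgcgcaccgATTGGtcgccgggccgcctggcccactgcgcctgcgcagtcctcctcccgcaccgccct

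A promoter from 250 bases before to 50 bases after a start site was listed for 33 of the 39 kinesins, and some genes have several listed starts, of which any could hold a match. CHR letters, taken as TTTGAA or TTCGAA on either strand, were in a promoter of 10 of 13 mitotic and 1 of 12 transport kinesins. Counted per gene in the same way, 15.6% of the tested genes with a promoter held them. Counted per single promoter, an unlike measure, the share was 16.4% of all 35114. The exceptions among the mitotic kinesins were KIF20A, KIF2C, and KIF2B. A CCAAT box was in a promoter of 10 of 13 mitotic and 4 of 12 transport kinesins, against 43.5% of the tested genes with a promoter. Per single promoter the share was 34.6%. In a window chosen after the positions were seen, the CHR letters began within 60 bases of the start site in 10 of the 12 tested mitotic kinesins and in 0 of 11 transport kinesins, against 5.22% of the tested genes. In KIF5B, the transport kinesin with the letters, they began at −140, and KIF22 held a second match at −244 from another listed start. In 8 of the 9 mitotic promoters that held both elements, the letters began 9 bases (KIF23) to 39 bases (KIF22) from the nearest CCAAT box upstream, and in KIF20B they lay farther away, at 122 and 128 bases. KIF4A and its close copy KIF4B held the same letters at the same spacing of 24 bases. They were counted separately in all these counts, and whether this is 1 copied stretch was not tested. Among the remaining kinesins, KIF24 held the letters at +1, 48 bases from a CCAAT box. No test was made of these counts, and a match of letters does not show that a factor binds there.

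**Figure D1:**
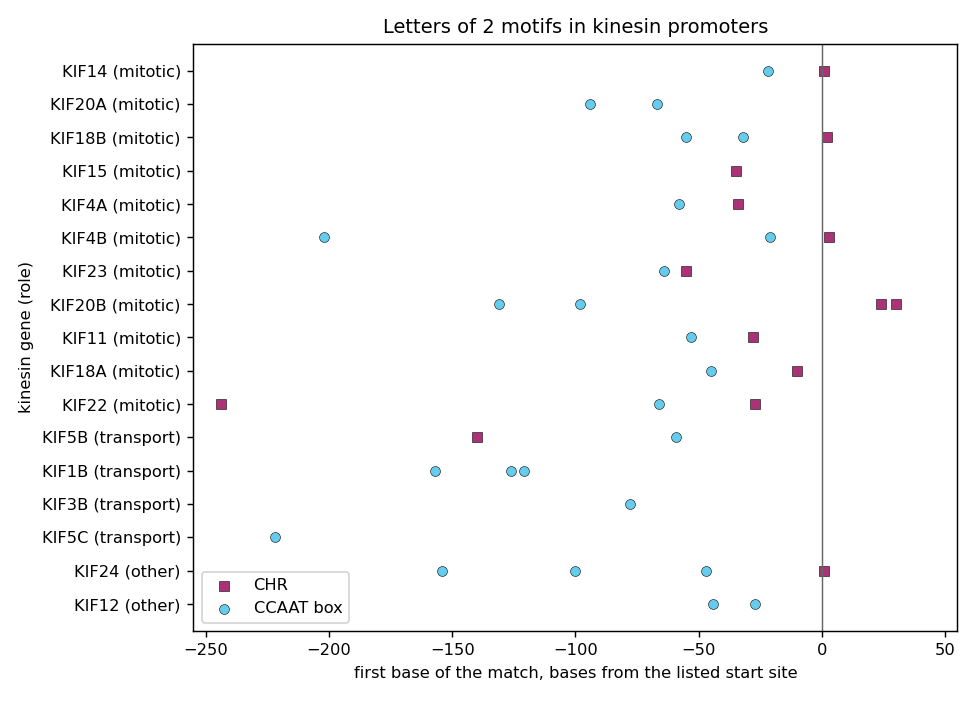
Positions of CHR letters and CCAAT boxes, in bases from the RefSeq start site (x axis), in the promoters of the kinesins (y axis), grouped by role. The CHR letters of 10 mitotic kinesins lie within 60 bases of the start, whereas those of KIF5B lie at −140.

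The mitotic kinesins were the group that fell. All 12 that could be tested were lower at 24 h than at 6 h, with log2 fold changes between −4.82 and −2.57 and a median of −4.05, beside 0.0029 over all genes tested. A gene was called lower or higher where its log2 fold change passed 0.5 in either direction and its unadjusted P was below 0.01, in edgeR's quasi-likelihood test of the raw counts, and adjusted P is that of Benjamini and Hochberg over the 12876 genes tested. The study's methods give such cutoffs for lower genes, and here they were applied in both directions and to the unadjusted P. By these cutoffs 17.7% of all tested genes were lower and 17.4% higher. All 12 also passed an adjusted P under 0.05 (32.6% of tested genes were lower by that measure and 33.0% higher), and in all 12 both 24 h libraries were below both 6 h libraries, as in 40.8% of tested genes, while 41.0% lay entirely above. The summed level of the mitotic kinesins was 974 and 908 CPM at 6 h and 81.6 and 76.0 CPM at 24 h, an 11.9-fold difference. In libraries of whole cultures, fewer cells in mitosis and less RNA per cell cannot be told apart.

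**Figure D2:**
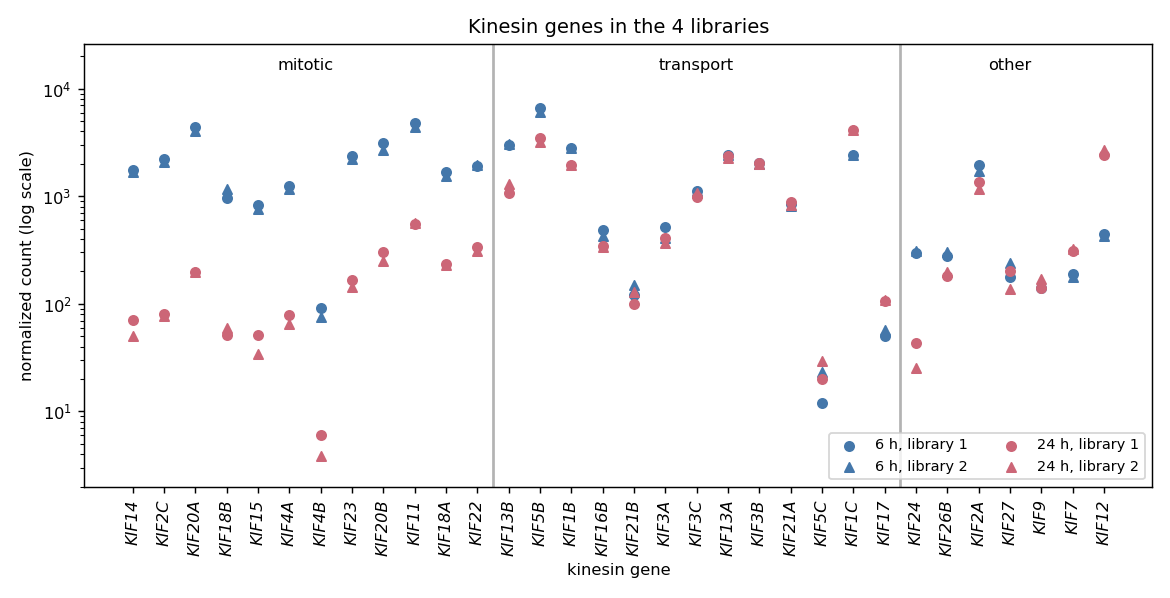
Normalized counts of each kinesin (y axis, log scale) in the 6 h and 24 h libraries, 1 point per library, grouped by role. The 24 h points of every tested mitotic kinesin lie below its 6 h points, and the points of most transport kinesins lie close together.

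Spindle assembly depends on KIF11 (Eg5), the motor that pushes the poles apart, and on KIF15, which can sustain a bipolar spindle beside it. KIF11, on chromosome 10 from 94353043 to 94415150 (hg19, as are the other gene positions), had 4479 and 4563 counts at 6 h against 558 and 584 at 24 h. The log2 fold change was −3.03 (SE 0.0810, adjusted P = 9.23e-22). KIF15 had 760 and 795 counts at 6 h against 51 and 35 at 24 h (log2 fold change −4.22, SE 0.141, adjusted P = 1.42e-19). For both motors the 24 h libraries lay below both 6 h libraries, as in 40.8% of tested genes, while 41.0% lay entirely above.

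Among the kinesins that act on microtubule ends and chromosome arms, KIF2C (MCAK), which takes microtubule ends apart and corrects faulty kinetochore attachments, had 2075 and 2161 counts at 6 h and 80 and 79 at 24 h. This was a 27.5-fold fall (log2 fold change −4.78, SE 0.105, adjusted P = 1.86e-23). KIF18B, which works with KIF2C on astral microtubules, had 891 and 1206 counts at 6 h against 52 and 61 at 24 h (log2 fold change −4.25). KIF18A, which damps the oscillation of chromosomes at the spindle equator, had 1560 and 1611 counts at 6 h against 235 and 238 at 24 h, a log2 fold change nearer to 0, at −2.79. The difference between KIF18A and KIF18B was not tested. KIF22 (Kid), a chromokinesin that pushes chromosome arms toward the equator, had the smallest fall of the group. It had 1752 and 2027 counts at 6 h against 341 and 316 at 24 h, for a log2 fold change of −2.57 (SE 0.0844, adjusted P = 1.00e-19). Even for KIF22, the lower 6 h library was 5.57-fold above the higher 24 h library after normalization. KIF4A, a chromokinesin that also shapes the central spindle with PRC1, had 1162 and 1210 counts at 6 h against 79 and 67 at 24 h (log2 fold change −4.07). Its close copy KIF4B had 84 and 79 counts at 6 h against 6 and 4 at 24 h (log2 fold change −4.04) with a wider SE of 0.341. KIF4A and KIF4B share part of their sequence (14.0% of 50-base words), and the counting rule is not given, so reads may have been split between them and the KIF4B value is uncertain. KIF2B, another depolymerizing kinesin, had 0 counts in all 4 libraries, which allows up to 3 counts in each.

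The cytokinesis motors included the steepest fall among the 32 tested genes with KIF and number symbols. KIF14, which brings citron kinase to the midbody, had 1617 and 1756 counts at 6 h and 71 and 52 at 24 h, a 28.3-fold fall (log2 fold change −4.82, SE 0.118, adjusted P = 1.70e-22). KIF20A (MKLP2), which carries the chromosomal passenger complex to the central spindle, lies on chromosome 5 from 137514408 to 137523404 and had 4110 and 4243 counts at 6 h against 197 and 202 at 24 h. The log2 fold change was −4.44 (SE 0.0903, adjusted P = 4.38e-24), and its listed promoter held no CHR letters. KIF23 (MKLP1), the motor of the centralspindlin complex, had 2189 and 2316 counts at 6 h against 167 and 147 at 24 h (log2 fold change −3.89). KIF20B, which also acts late in cytokinesis, had 2924 and 2791 counts at 6 h and 305 and 258 at 24 h, with a log2 fold change of −3.39. All 4 cytokinesis motors fell, and both 24 h libraries of each were far below its 6 h libraries. Of all tested genes, 40.8% had both 24 h libraries below both 6 h libraries, by any margin. KIF20A, KIF15, KIF4A, and KIF18A overlap neighbouring genes, and of these neighbours BRD8 (at KIF20A) was also called lower, with a log2 fold change of −1.11. Because the strand setting of the counting is not given, reads of overlapping genes cannot be assigned with certainty.

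**Figure D3:**
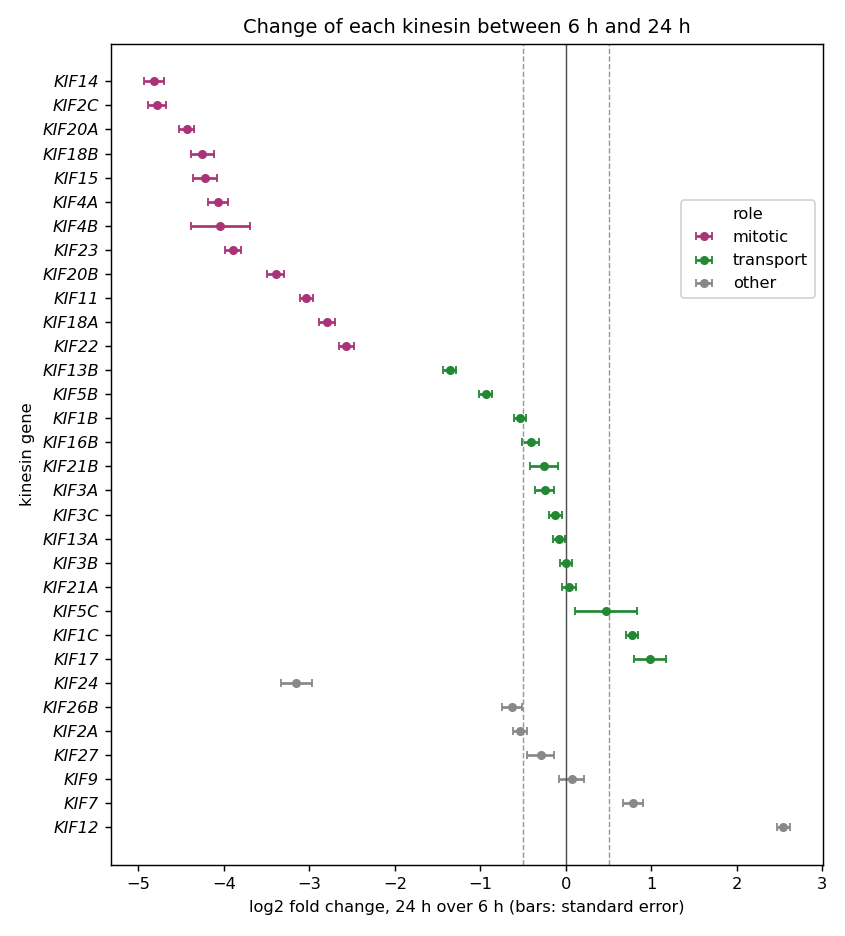
Log2 fold change of each tested kinesin, 24 h against 6 h (x axis), with its standard error, grouped by role (y axis). The mitotic kinesins lie between −4.82 and −2.57, the transport kinesins between −1.36 and 0.99, and KIF12 stands at 2.55.

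Transport kinesins moved in both directions and by less. Of the 13 tested, 3 were called lower, 2 were called higher, and 8 were not called. Their median was −0.12, and the lower and higher shares stood near the 17.7% and 17.4% of all genes. No transport value came within the range of the mitotic values as sorted here. This depends on the place of KIF2A (−0.532) among the others. With KIF2A counted as mitotic, KIF13B (−1.36), KIF5B (−0.94), and barely KIF1B (−0.533) lie within the range. Their summed level was 861 and 833 CPM at 6 h and 683 and 677 CPM at 24 h, a 1.25-fold difference.

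KIF5B, the conventional kinesin heavy chain found in most tissues, lies on chromosome 10 from 32297938 to 32345359. It had 6120 and 6356 counts at 6 h against 3477 and 3255 at 24 h (log2 fold change −0.94, SE 0.0746, adjusted P = 1.91e-11). KIF13B, which moves membrane cargo bound to the scaffold protein DLG1, had 2797 and 3203 counts at 6 h and 1070 and 1342 at 24 h. This was the largest fall of a transport kinesin, with a log2 fold change of −1.36 (SE 0.0811, adjusted P = 4.67e-14). KIF1B, which carries mitochondria and vesicle precursors, had 2627 and 2897 counts at 6 h against 1947 and 1995 at 24 h (log2 fold change −0.53, just past the cutoff).

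Opposite to these, KIF1C, a fast vesicle motor related to KIF1B, had 2243 and 2534 counts at 6 h and 4168 and 4278 at 24 h (chromosome 17, 4901243 to 4931696). Its log2 fold change was 0.78 (SE 0.0700, adjusted P = 2.33e-10). KIF17, a homodimeric motor of cilia and dendrites, had 47 and 60 counts at 6 h against 107 and 112 at 24 h (log2 fold change 0.99, SE 0.186, adjusted P = 4.37e-05). KIF1B and KIF1C, members of one subfamily, were thus called in opposite directions.

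The kinesin-2 subunits KIF3A, KIF3B, and KIF3C, which power anterograde transport in cilia and elsewhere, were not called. KIF3A had 476 and 429 counts at 6 h and 415 and 374 at 24 h (log2 fold change −0.25, adjusted P = 0.0472). KIF3B had 1902 and 2058 counts at 6 h and 2055 and 2056 at 24 h, and KIF3C had 1029 and 1172 at 6 h and 990 and 1099 at 24 h. The endosome motor KIF16B was nearer to the cutoff, with 451 and 442 counts at 6 h against 345 and 350 at 24 h. The log2 fold change was −0.41 (adjusted P = 0.000940) and reached −0.51, past the cutoff, when the second 6 h library was left out. KIF13A, a motor of recycling endosomes, had 2249 and 2540 counts at 6 h and 2354 and 2319 at 24 h, and KIF21A, which restrains microtubule growth, had 791 and 848 at 6 h and 882 and 853 at 24 h. KIF21B, its relative, had 113 and 156 counts at 6 h and 101 and 131 at 24 h. Of the heavy chains known mainly from nerve cells, KIF5C had 11 and 24 counts at 6 h and 20 and 30 at 24 h, for a log2 fold change of 0.47 (SE 0.359) that was 0.094 without the first 6 h library and 1.04 without the second. KIF5A had 0 counts in all 4 libraries, and KIF1A had a single count in 1 library, so neither was tested.

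Other kinesins, which were assigned to neither role, held the largest rise in the family. KIF12, a little-studied kinesin known from kidney and liver, lies on chromosome 9 from 116848406 to 116861507 and had 417 and 443 counts at 6 h and 2451 and 2740 at 24 h. The rise was 5.84-fold, with a log2 fold change of 2.55 (SE 0.0807, adjusted P = 4.58e-20). Of the 32 tested genes, KIF12 alone had a log2 fold change over 1.

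KIF24, which takes microtubules apart at the mother centriole and restrains cilium formation, fell within the range of the mitotic kinesins. It had 277 and 320 counts at 6 h against 43 and 26 at 24 h (log2 fold change −3.15, SE 0.178, adjusted P = 1.46e-14). KIF26B, an atypical kinesin, had 259 and 314 counts at 6 h against 181 and 201 at 24 h (log2 fold change −0.63). KIF2A, a relative of KIF2C that acts at spindle poles and also in interphase, had 1815 and 1789 counts at 6 h against 1367 and 1211 at 24 h. The log2 fold change of −0.53 became −0.42 without the second 24 h library and −0.44 without the first 6 h library, short of the cutoff. KIF2A overlaps an entry on chromosome 5 that bears the symbol CKS1B and fell from 233 and 307 counts to 36 and 34. Whether the reads of that entry came from the cell cycle gene of this name was not tested.

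KIF7, a regulator of Hedgehog signaling at the tip of the cilium, rose from 176 and 187 counts at 6 h to 311 and 335 at 24 h, for a log2 fold change of 0.78 (SE 0.117, adjusted P = 1.61e-06). It overlaps TICRR, a replication gene that went from 445 and 468 counts to 52 and 48. KIF27, a relative of KIF7, had 163 and 249 counts at 6 h and 204 and 141 at 24 h and was not called, and its log2 fold change of −0.29 became −0.60, past the cutoff, without the first 24 h library, but −0.031 without the second 24 h library and −0.054 without the second 6 h library. KIF9, known from motile cilia, had 130 and 161 counts at 6 h and 140 and 175 at 24 h and was not called. In total, 3 of the 7 tested kinesins in this group were lower and 2 were higher, beside 17.7% lower and 17.4% higher of all tested genes. KIF19 and KIF26A had 0 counts in all libraries, KIF25 had between 3 and 8 counts, and KIF6 had between 1 and 5, so these 4 were not tested.

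Levels of different kinesins were compared as CPM per kilobase of the longest protein-coding transcript. At 6 h the highest level was that of KIF20A (54.8 and 50.3 CPM per kilobase), followed by KIF5B (43.1 and 39.7) and KIF11 (36.9 and 33.4). KIF22 (29.0 and 29.8) and KIF2C (29.0 and 26.8) came next and did not differ beyond their spread. At 24 h the order had changed, with KIF12 first at a mean of 44.5 CPM per kilobase, up from 7.62, then KIF5B (22.6 and 20.6) and KIF1C (20.1 in both libraries). KIF20A stood at 2.42 and 2.43 and KIF11 at 4.24 and 4.33. Among all tested genes, the level of the mitotic kinesins had a median percentile of 69.6 at 6 h and 18.7 at 24 h, where the highest was KIF22 at 39.0. Within the transport group, KIF1C went from 9.40% and 9.80% of the level per length at 6 h to 20.4% and 20.8% at 24 h, and KIF5B went from 34.6% and 33.2% to 23.0% and 21.3%.

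**Figure D4:**
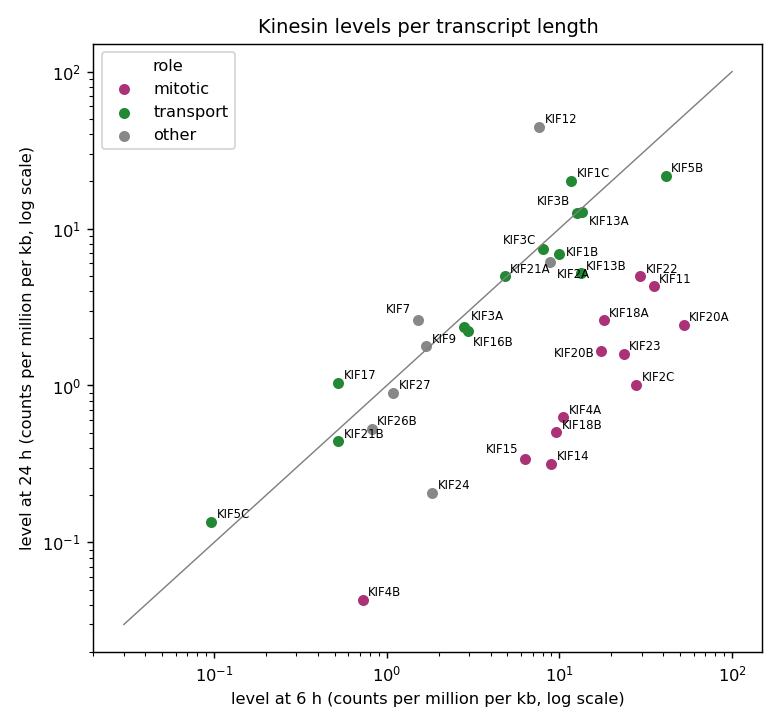
Mean level of each kinesin in CPM per kilobase at 6 h (x axis) and 24 h (y axis), both on log scales, colored by role, with a line of equal level. Mitotic kinesins lie far below the line, most transport kinesins lie near it, and KIF12 lies above it.

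Kinesins whose symbols do not follow the KIF and number form moved in both directions, and they were not sorted by role. The fall of every tested mitotic kinesin therefore covers only genes with KIF and number symbols. STARD9 and KIFC2 are given here without a role. CENPE, the kinetochore kinesin that aligns chromosomes, had 1266 and 1274 counts at 6 h against 55 and 36 at 24 h (log2 fold change −4.85). KIFC1, a minus-end motor that focuses spindle poles, had 2183 and 2383 counts at 6 h against 212 and 184 at 24 h (log2 fold change −3.57). Against these, KIFC3, a minus-end motor of adherens junctions, rose from 626 and 760 to 1656 and 1611 counts (log2 fold change 1.19). STARD9 also rose, from 151 and 207 counts at 6 h to 285 and 268 at 24 h (log2 fold change 0.58). KIFC2 was not called, at 0.36. Of the 5 genes, 2 were lower and 2 higher, beside 17.7% lower and 17.4% higher of all tested genes.

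Proteins that bind or regulate the mitotic kinesins changed in the same direction as their motors. Of 18 such genes, 17 were lower and 1 was not called, beside 17.7% lower and 17.4% higher of all tested genes. Their median log2 fold change was −3.64. The largest falls were those of ASPM (−5.11), which acts at spindle poles, and HMMR (−4.93), a spindle protein. TPX2, which binds KIF11 and KIF15, fell from 4832 and 5109 counts to 413 and 445, and PRC1, which binds KIF4A and KIF14, fell from 3634 and 3904 to 304 and 283. RACGAP1, the partner of KIF23 in centralspindlin, fell by 3.09 on the log2 scale, whereas ECT2, the exchange factor that centralspindlin recruits, fell by 0.84. The exception was NUMA1, a dynein-binding spindle pole protein, which had 3240 and 4139 counts at 6 h and 3430 and 4245 at 24 h.

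Of 16 tested light chains and cargo adaptors of the transport kinesins, 1 was lower, 2 were higher, and 13 were not called, with a median log2 fold change of 0.020. Of all tested genes, 17.7% were lower and 17.4% higher. The light chains KLC1, KLC2, and KLC4, which couple KIF5 heavy chains to cargo, had log2 fold changes of −0.079, 0.016, and 0.051, and KIFAP3, the third subunit of kinesin-2, had 0.14. None of these was called, while KIF5B itself fell. KIDINS220 (−0.57) was the member called lower, and TRAK1 (0.65), a mitochondrial adaptor of KIF5, and MAPK8IP2 (1.15) were the members called higher.

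Dynein and dynactin, the motor complex that runs in the opposite direction, had 5 lower and 2 higher of 31 genes tested and a median of −0.11, beside 17.7% lower and 17.4% higher of all tested genes. The shares of all genes apply likewise to the lists that follow. The extremes were DYNC1I1, an intermediate chain that had 95 and 114 counts at 6 h and 18 and 17 at 24 h (−2.61), NDE1 (−1.58), HOOK1 (1.15), and BICD2 (0.50). For intraflagellar transport, the ciliary cargo system of KIF3A and KIF3B, 3 of 23 tested genes were lower and 2 were higher, with a median of −0.094. IFT46 (−0.69) and IFT74 (−0.64) fell most and WDR35 (0.62) and IFT140 (0.61) rose most. In the Hedgehog pathway, in which KIF7 acts, 1 of 7 tested genes was lower, GLI1 (37 and 41 counts at 6 h, 11 and 7 at 24 h), and 3 were higher, with GLI2 (1.53) the largest.

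**Figure D5:**
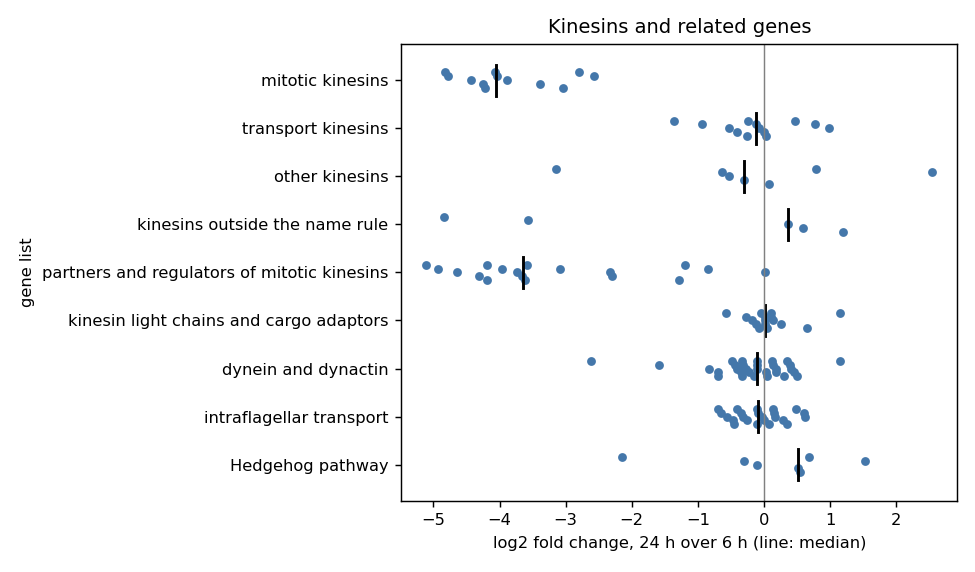
Log2 fold changes, 24 h against 6 h, of the tested genes in each kinesin group and each related list (1 point per gene, with the median of the list). The medians are −4.05 for mitotic kinesins and −3.64 for their partners, and lie between −0.12 and 0.020 for transport kinesins, light chains and adaptors, dynein and dynactin, and intraflagellar transport.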

How the data were processed

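Reads were aligned to hg19 by the authors with STAR, listed as release 2.3 in the submitters' processing notes. The paper's methods give a later release. The reads are single-end in the labels but paired-end in the methods. The authors deposited the raw count of reads per gene and a normalized signal, the count divided by a DESeq2 size factor per library. The counting program and its strand setting are not given in the sources used here. Their log2 fold changes, standard errors, Wald scores, and P values were not used. The raw counts of every library were used, and the deposited normalized signal was not.

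The quasi-likelihood test of edgeR 4.0.16 (R 4.3.3) was run on the raw counts of all 4 libraries after filterByExpr and TMM normalization, with time as the single factor, and Benjamini-Hochberg adjustment over 12876 genes. Standard errors were derived from the F statistic. Levels per length used GENCODE transcripts, matched by identifier for 39 kinesins and 12566 tested genes. Promoters were RefSeq sequences matched by symbol to 80.6% of tested genes, and the CHR letters and the CCAAT box were searched on both strands. The CCAAT box, the 60-base window, and the printed 150-base stretch were chosen after the sequences were seen. Plots were drawn with matplotlib 3.10.9.

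All kinesins are accounted for. Of each related list, the called genes with the largest changes in each direction and direct kinesin partners are named, and a few others were chosen after their values were seen. The kinesins, their roles, and the lists were chosen with earlier results of these data known. The procedure was tested on simulated data. Same-numbered libraries did not deviate together (correlation 0.0844), so the numbers were not treated as pairs. Libraries of one time point differed by more than counting noise (chi-square per degree of freedom 8.66 at 6 h and 6.67 at 24 h). Alternatives were DESeq2 1.42.0, other scalings, filters, cutoffs, and role groups, a replicate block, and each library left out. The result of 1 marker gene is not reported here.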

Additional observations from a re-analysis of the deposited data

How the results depend on the processing

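The 12 mitotic kinesins called lower stayed 12 under DESeq2, both other scalings, no filter, both other cutoffs, a replicate block, and each library left out. The number was 11 with at least 10 counts in every library, or without KIF4B, and 13 with KIF2A counted as mitotic. In that last setting the mitotic and transport ranges overlapped. With each library left out, the median of the mitotic kinesins lay between −4.17 and −3.85, the latter without the second 24 h library. With the replicate block the medians were −4.06 for mitotic and −0.12 for transport kinesins, and no call changed. Transport kinesins called lower numbered 5 of 13 at an adjusted P under 0.05, beside 32.6% of all tested genes. They numbered 1 at an absolute log2 fold change over 1, where 0 were called higher by edgeR. At that stricter cutoff, 1 other kinesin was lower and 1 was higher. The share of all tested genes past the stricter cutoff was not computed, so these counts have no measure beside them.

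Of 319 single-gene values over 32 genes, 309 kept their direction and their side of the cutoffs, 2 crossed to a call, 2 lost it, and 6 changed sign. The sign changes were in values near 0. KIF3B was −0.035 and KIF21A −0.0067 under library size alone, and with each library left out KIF3B lay between −0.025 and 0.035, KIF21A between −0.0033 and 0.084, and KIF9 between −0.075 and 0.21. The other scalings moved the median of all genes to between −0.040 and 0.033. With 2 libraries per time point, no library could be tested as an outlier, and genes with few counts, such as KIF5C and KIF4B, had the widest errors.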
